A study of Saccharomyces cerevisiae with 2 samples.

Results

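Transfer RNAs carry chemical changes on many of their bases, and each is made by an enzyme that recognises a position of the folded molecule. Changes in the anticodon loop tune how codons are read, and changes in the body of the molecule help it to fold and to last. The genes for these enzymes in budding yeast are named mainly by their chemistry: TRM genes for methylation, PUS genes for the isomerisation of uridine to pseudouridine, DUS genes for its reduction to dihydrouridine, TAD genes for the deamination of adenosine to inosine, and ELP genes for Elongator, which starts a side chain on the wobble uridine. Genes were taken as members when their platform symbol was a single S. cerevisiae symbol of the pattern TRM, PUS, DUS or TAD with digits, or was among ELP2, ELP3, ELP4, ELP6, IKI1, NCS2, NCS6, MOD5, THG1, TYW1 and TYW3. Of 5449 S. cerevisiae genes measured, 39 met this rule, each through 1 probe set.

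The data are signals from 2 GeneChip Yeast Genome 2.0 arrays (Affymetrix), 1 labelled DR, for dietary restriction on 0.5% glucose, and 1 labelled AL, for ad libitum growth on 2.0% glucose; they are called the DR-labelled and the AL-labelled array here. Both came from wild-type cells of BY4742, a haploid laboratory strain of mating type alpha that carries his3Δ1, leu2Δ0, lys2Δ0 and ura3Δ0, in medium with 1% yeast extract and peptone. Cultures were grown for 12 hours at 30°C and ended at an OD600 of 0.85 to 0.99, and the sources used here do not say which density belongs to which array. With 1 array per condition there was no replicate, so no error could be given and no test was run, and each ratio compares these arrays and not the conditions.

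The ratios given here are of the DR-labelled array over the AL-labelled array. Their direction opposes that of the ratios in the study's own tables, so the arrays are named by label alone, and exchanging the labels would turn every sign. Over all genes the log2 ratio had a median of −0.12. A background was taken from 9 genes that the strain lacks or that alpha cells keep silent. The highest of them, STE6, the a-factor exporter, had a signal of 129.4 on the DR-labelled array and 281.6 on the AL-labelled array. The median of the 9 was 24.6 on the DR-labelled array and 57.6 on the AL-labelled array. A gene under the STE6 level can thus still lie above most of the 9. The alpha-specific gene STE3, the receptor for a-factor, had 5295 on the DR-labelled array and 637.2 on the AL-labelled array. A second, lower level came from 1746 probe sets named for genes outside the S. cerevisiae table, whose 95th percentile was 11.7 on the DR-labelled array and 11.5 on the AL-labelled array. Among these were 21 probe sets that carry a member's name in lower case, with signals of 0.3 to 7.2 on the DR-labelled array and 0.2 to 8.7 on the AL-labelled array.

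More of the 39 genes had a higher signal on the DR-labelled array than on the AL-labelled array. The log2 ratio was above 0 for 26 genes and below 0 for 13, with a median of 0.54 and a range of −2.35 to 2.90. At 2-fold, the threshold of the study's methods, 14 genes (35.9%) were higher on the DR-labelled array, beside 20.5% of all genes, and 5 (12.8%) were higher on the AL-labelled array, beside 24.3% of all genes. The other 20 lay within 2-fold. The counts were 16 and 3 with the log2 ratios centred on the median of all genes, 15 and 3 after quantile normalization, and 14 and 3 after removal of the trend on signal, each time with PUS6 and TRM112 within 2-fold. In a bulk culture, fewer cells with a transcript and less of it per cell cannot be told apart. At 1.5-fold, 19 genes (background 29.3%) were higher on the DR-labelled array and 8 (background 35.7%) on the AL-labelled array, and at 3-fold the counts were 7 (background 11.5%) and 2 (background 12.7%).

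The 14 genes were PUS9, PUS7, PUS4, TRM10, ELP3, TRM82, TYW1, PUS1, TRM7, TAD3, TRM3, TRM11, MOD5 and TRM1, from the highest ratio to the lowest. The 5 genes were TRM12, THG1, PUS5, TRM112 and PUS6. All 14 had a signal on the AL-labelled array that was under the STE6 level there, and all 14 were above the STE6 level of the DR-labelled array. None of the 5 was under the STE6 level on either array. When signals under the STE6 level were raised to it, 4 of the 14 were still more than 2-fold higher on the DR-labelled array, namely PUS7, PUS1, TYW1 and ELP3, and the median of the 39 genes became −0.03, beside −0.39 for all genes. The share of all genes past 2-fold that way was then 14.1%. On the AL-labelled array 6 members were then higher by more than 2-fold, the 5 genes and DUS1, beside 32.1% of all genes. The STE6 levels are unequal, so a gene under both takes a log2 ratio of −1.12 from the levels alone, as DUS1 did. A gene raised on the AL-labelled array likewise takes a negative log2 ratio whenever its signal on the DR-labelled array is under 281.6. The lower level left all 39 ratios as they were, and no member lay under it on either array.

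**Figure D1:**
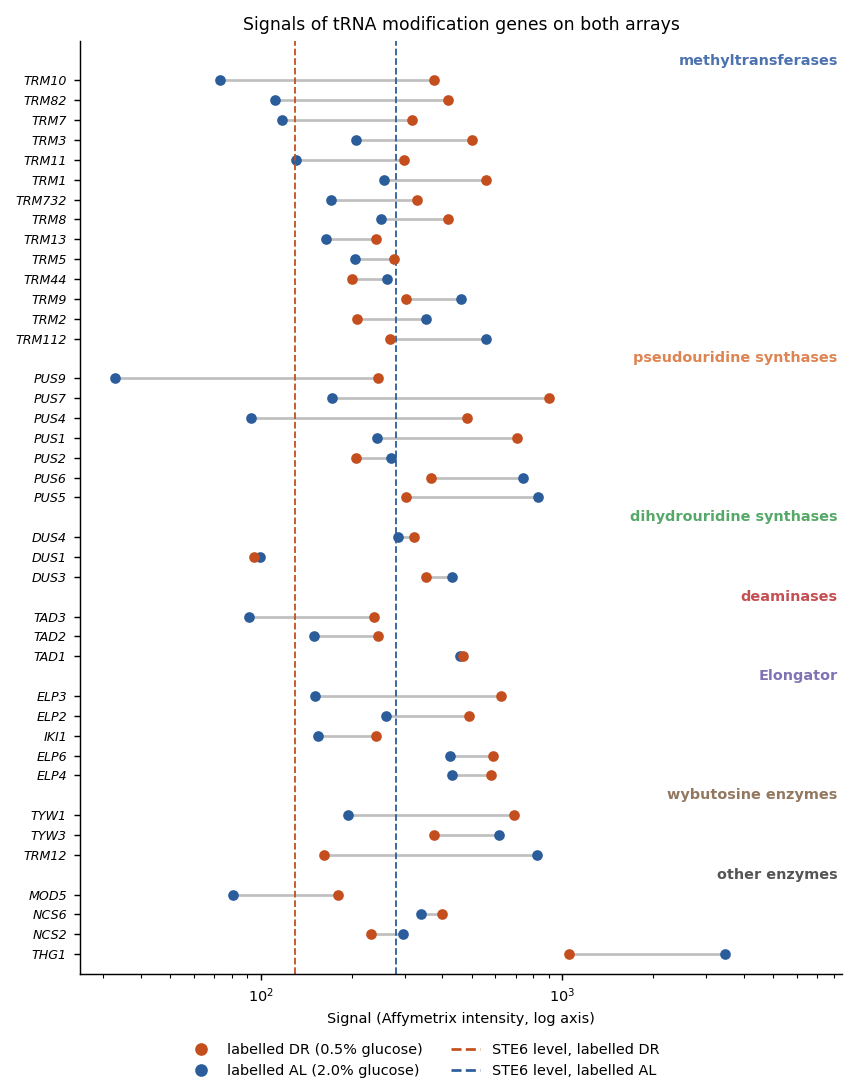
Signal (Affymetrix intensity, log axis) of each of the 39 genes on the DR-labelled array (orange) and on the AL-labelled array (blue), 1 array each, grouped by class and ordered by ratio. Dashed lines give the STE6 level of each array, 129.4 on the DR-labelled array and 281.6 on the AL-labelled array. Signals of different genes come from different probes and are not to be set against each other.

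Methyltransferases formed the largest class, with 14 genes including 3 partner subunits. Of these, 6 (42.9%) were more than 2-fold higher on the DR-labelled array and 1 (7.1%) on the AL-labelled array. The shares of all genes were 20.5% and 24.3%. The class median was a log2 ratio of 0.85. TRM10, which methylates a guanosine between the acceptor stem and the D arm, had a signal of 373.7 on the DR-labelled array and 73.0 on the AL-labelled array, a ratio of 5.12. TRM1, which makes dimethylguanosine at the junction of the D arm and the anticodon arm, had 557 on the DR-labelled array and 256.2 on the AL-labelled array. TRM3, which methylates the ribose of a guanosine in the D loop, had 502.8 on the DR-labelled array and 207.3 on the AL-labelled array. The ratios were 2.17 for TRM1 and 2.43 for TRM3. The signals of all 3 on the AL-labelled array were under the STE6 level, and raised to it the ratios were 1.33 for TRM10, 1.98 for TRM1 and 1.79 for TRM3, all within 2-fold.

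The genes for the 7-methylguanosine of the variable loop also stood that way, by unequal amounts. TRM8, the catalytic subunit, had a signal of 418.4 on the DR-labelled array and 249.5 on the AL-labelled array. TRM82, the WD-repeat protein that holds Trm8 active, had 417.8 on the DR-labelled array and 111.7 on the AL-labelled array. The ratio was 1.68 for TRM8 and 3.74 for TRM82, a 2.23-fold gap between partners of a single enzyme. Both signals on the AL-labelled array were under the STE6 level there. Raised to it both take the same 281.6, so their shared log2 ratio of 0.57 reflects the DR-labelled array alone.

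TRM7, which methylates riboses in the anticodon loop, had a signal of 317.8 on the DR-labelled array and 117.6 on the AL-labelled array. TRM732, the partner that directs it to the first base of the anticodon loop, had 330 on the DR-labelled array and 170.1 on the AL-labelled array. RTT10 (TRM734), the partner for the wobble base and outside the rule by its symbol, had 357.7 on the DR-labelled array and 136.5 on the AL-labelled array. All 3 were higher on the DR-labelled array and lay close together, with ratios of 2.70 for TRM7, 1.94 for TRM732 and 2.62 for RTT10, so the spread within this unit was 1.39-fold. Their signals on the AL-labelled array were all under the STE6 level. Raised to it the ratios were 1.13 for TRM7, 1.17 for TRM732 and 1.27 for RTT10, so none was past 2-fold.

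TRM112, a small activator shared by several methyltransferases, was the methyltransferase gene past 2-fold the other way. Its signal was 267.8 on the DR-labelled array and 556 on the AL-labelled array. TRM9, which adds the last methyl group to the Elongator side chain with Trm112, had 302.2 on the DR-labelled array and 462.7 on the AL-labelled array. TRM11, which methylates a guanosine of the D arm with the same activator, had 298.3 on the DR-labelled array and 130.4 on the AL-labelled array. The log2 ratios were −1.05 for TRM112, −0.61 for TRM9 and 1.19 for TRM11. The signal of TRM11 on the AL-labelled array was under the STE6 level, and raised to it the log2 ratio was 0.08, nearly level. Of the partners of Trm112 outside tRNA modification, BUD23, which methylates ribosomal RNA, had a log2 ratio of −0.45. MTQ2, which methylates a release factor and was named after its value was seen, had 1.56. Both signals on the AL-labelled array were under the STE6 level, and raised to it the log2 ratios were −0.87 for BUD23 and 0.77 for MTQ2.

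The other 4 methyltransferases lay within 2-fold, with log2 ratios on both sides of 0. TRM13, for the ribose of the acceptor stem, had 240.1 on the DR-labelled array and 164.9 on the AL-labelled array. It neighbours TRM11 on the chromosome, the only adjacent pair among the 39 genes, and the log2 ratio was 0.54 for TRM13 beside 1.19 for TRM11, or −0.23 beside 0.08 with signals raised to the STE6 level. TRM5, an enzyme of the base next to the anticodon, had 275.8 on the DR-labelled array and 204.9 on the AL-labelled array. TRM44, which acts on serine tRNAs, had 200.6 on the DR-labelled array and 261.3 on the AL-labelled array. TRM2, which methylates the uridine that gives the T loop its ribothymidine, had 208.8 on the DR-labelled array and 352.1 on the AL-labelled array, the lowest ratio of these 4 genes with a log2 of −0.75.

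Pseudouridine synthases were divided. Of the 7, 4 passed 2-fold with the higher signal on the DR-labelled array, 2 with the higher signal on the AL-labelled array, and 1 lay within it. Of all genes, 20.5% passed 2-fold with the higher signal on the DR-labelled array and 24.3% on the AL-labelled array. PUS7, which acts on tRNAs, on a spliceosomal RNA and on messenger RNAs, had a signal of 903.1 on the DR-labelled array and 171.9 on the AL-labelled array. PUS4, which makes the pseudouridine of the T loop, had 483.3 on the DR-labelled array and 92.3 on the AL-labelled array. PUS1, a nuclear enzyme with several target positions, had 705.1 on the DR-labelled array and 243.1 on the AL-labelled array. The ratios were 5.25 for PUS7, 5.24 for PUS4 and 2.90 for PUS1. With signals under the STE6 level raised to it they were 3.21 for PUS7, 2.50 for PUS1 and 1.72 for PUS4, which was then within 2-fold.

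The remaining synthases did not stand together. PUS9, which modifies the anticodon loop of mitochondrial tRNAs, had 245.1 on the DR-labelled array and 32.8 on the AL-labelled array. Its ratio of 7.47 was the highest of the 39 genes, at rank 147 of all 5449 genes. With the signal on the AL-labelled array raised to the STE6 level the log2 ratio was −0.20. PUS5, which acts on mitochondrial ribosomal RNA and not on tRNA, had 302.7 on the DR-labelled array and 832.4 on the AL-labelled array, a 2.75-fold difference the other way. PUS6, an enzyme of cytosolic and mitochondrial tRNAs, had 366.5 on the DR-labelled array and 739.1 on the AL-labelled array. PUS2, a mitochondrial relative of PUS1, had 206.2 on the DR-labelled array and 270.2 on the AL-labelled array, with a log2 ratio of −0.39 beside 1.54 for PUS1. The class median of 1.54 rests on the 4 genes higher on the DR-labelled array. Like PUS2, these were under the STE6 level on the AL-labelled array. The class median was −0.20 with signals under the STE6 level raised to it, beside −0.39 for all genes.

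The dihydrouridine synthases were the class with the least difference. DUS3, for the variable loop, had a signal of 352.2 on the DR-labelled array and 429 on the AL-labelled array. DUS4, for the D loop, had 322.6 on the DR-labelled array and 285.7 on the AL-labelled array. DUS1, also for the D loop, had 94.8 on the DR-labelled array and 99.5 on the AL-labelled array, and it was the single member under the STE6 level on both arrays. All 3 lay within 1.5-fold, with log2 ratios of −0.28 for DUS3, 0.18 for DUS4 and −0.07 for DUS1, which had −1.12 with its signals raised to the STE6 level and 0.05 after median centring. The remaining yeast enzyme of this family, SMM1 (DUS2), outside the rule by its symbol, had 226.4 on the DR-labelled array and 198.2 on the AL-labelled array.

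Of the deaminase genes, TAD2 and TAD3 encode the subunits of the essential enzyme that makes inosine at the wobble position. TAD3 had a signal of 236.7 on the DR-labelled array and 90.9 on the AL-labelled array, and TAD2, the catalytic subunit, had 245.3 on the DR-labelled array and 150.3 on the AL-labelled array. The ratio was 2.60 for TAD3 and 1.63 for TAD2, and with signals under the STE6 level raised to it the log2 ratios were −0.25 and −0.20. TAD1, which deaminates the base next to the anticodon of alanine tRNA, had 469 on the DR-labelled array and 457.9 on the AL-labelled array, nearly level.

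**Figure D2:**
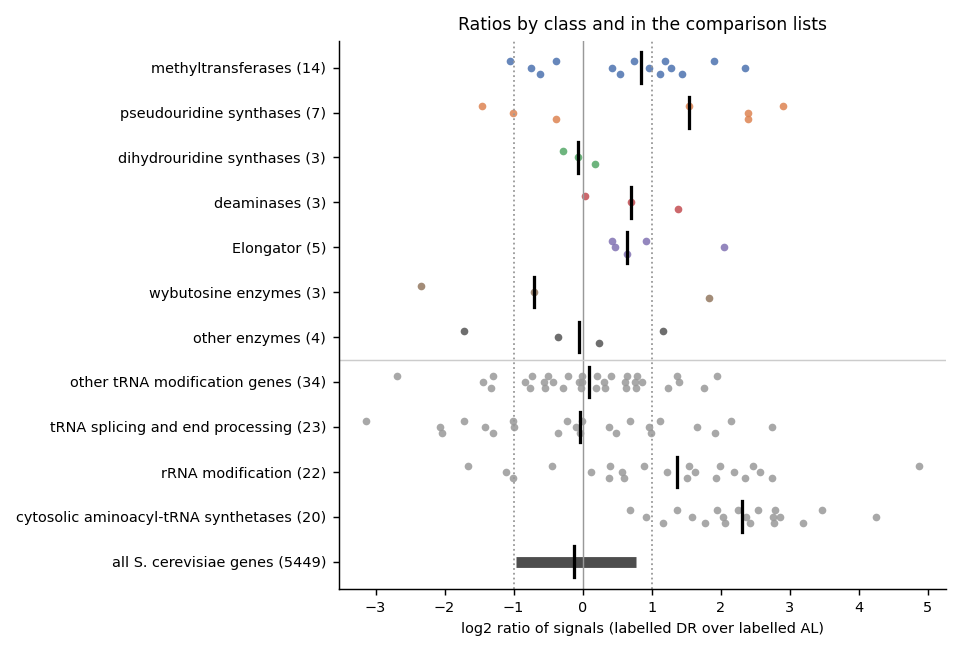
Log2 ratio of signals (labelled DR over labelled AL) of each gene in the 7 classes of tRNA modification genes and, in grey, in 4 comparison lists, with the number of genes in brackets. Black lines are medians, the dark bar runs between the quartiles of all genes, and dotted lines mark 2-fold; the class medians run from −0.71 for the wybutosine enzymes to 1.54 for the pseudouridine synthases.

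All 5 genes of Elongator among the 39 had a log2 ratio above 0, though IKI1 had −0.22 with signals under the STE6 level raised to it. Of the 5, 1 (20%) was past 2-fold, beside 20.5% of all genes. ELP3, the catalytic subunit, had a signal of 624.3 on the DR-labelled array and 151.2 on the AL-labelled array, a ratio of 4.13, or 2.22 with the signal on the AL-labelled array raised to the STE6 level. ELP2, a WD-repeat subunit that with Elp3 belongs to the core subcomplex, had 489.1 on the DR-labelled array and 259.6 on the AL-labelled array. Both core genes thus stood above the accessory ring that the next 3 genes encode. ELP4 had 581.2 on the DR-labelled array and 431 on the AL-labelled array. ELP6 had 588.6 on the DR-labelled array and 424.8 on the AL-labelled array. IKI1 (ELP5) had 241.1 on the DR-labelled array and 154.6 on the AL-labelled array. The ring genes lay close to each other, with ratios of 1.35 for ELP4, 1.39 for ELP6 and 1.56 for IKI1, and ELP2 had 1.88. Without replicates, whether the core differs from the ring beyond error was not testable.

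Proteins that control Elongator spread over 11.8-fold in their ratios, beside 3.06-fold for its subunits. KTI11, a small electron carrier that Elongator shares with the synthesis of diphthamide, had 175.7 on the DR-labelled array and 1139 on the AL-labelled array, the lowest ratio among 34 further tRNA modification genes outside the rule. KTI12, a partner ATPase, had 413.9 on the DR-labelled array and 227.8, under the STE6 level, on the AL-labelled array. ATS1 (KTI13), the partner of Kti11, had 556.5 on the DR-labelled array and 559.4 on the AL-labelled array. The kinase gene HRR25 and the phosphatase gene SIT4, which set the phosphorylation of Elongator, had log2 ratios of −0.84 and −0.56. SAP185 and SAP190, which encode partners of Sit4, stood the other way with 0.77 and 0.78, though SAP185 had −1.11 with signals under the STE6 level raised to it. Among these regulators KTI11 alone was past 2-fold.

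Thiolation of the same wobble uridine showed little difference at its last step. NCS6 had a signal of 398.9 on the DR-labelled array and 338.8 on the AL-labelled array. NCS2, its partner in the thiolase, had 232.4 on the DR-labelled array and 296.4 on the AL-labelled array. The proteins that feed sulphur to them were spread more widely: URM1, the ubiquitin-like carrier, had a log2 ratio of −0.76, UBA4, its activator, −0.54, and TUM1, a sulphur transferase, 0.41. The signal of URM1 on the AL-labelled array was under the STE6 level, and raised to it the log2 ratio was −1.06. NFS1, the cysteine desulphurase that also serves iron-sulphur clusters, had 1556 on the DR-labelled array and 459.1 on the AL-labelled array.

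Wybutosine, a bulky base beside the anticodon of phenylalanine tRNA, is built in successive steps, and the genes of these steps had the widest spread of any unit, 18.1-fold. The starting methylation by TRM5 had a log2 ratio of 0.43, or −0.03 with its signal on the AL-labelled array raised to the STE6 level. TYW1, the iron-sulphur enzyme of the next step, had a signal of 690.8 on the DR-labelled array and 194.5 on the AL-labelled array. TRM12, which adds the side chain and is not a methyltransferase in spite of its name, had 162.3 on the DR-labelled array and 825.9 on the AL-labelled array. Successive steps of this pathway thus stood in opposite directions, TYW1 3.55-fold higher on the DR-labelled array and TRM12 5.09-fold higher on the AL-labelled array. TYW3, the following enzyme, had 375.9 on the DR-labelled array and 615.1 on the AL-labelled array. PPM2 (TYW4), which completes the base, had 60.1 on the DR-labelled array and 60.4 on the AL-labelled array, under the STE6 level on both arrays. TRM12 had the lowest ratio of the 39 genes, at rank 5164 of 5449, and its signals were above the STE6 level on both arrays.

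THG1 and MOD5 make their own kinds of change. THG1, which adds the extra guanosine at the 5′ end of histidine tRNA, had a signal of 1055 on the DR-labelled array and 3458 on the AL-labelled array, a 3.28-fold difference. MOD5, which adds an isopentenyl group beside the anticodon, had 179.7 on the DR-labelled array and 80.5 on the AL-labelled array. The ratio of MOD5 was 2.23, and its log2 became −0.65 with the signal on the AL-labelled array raised to the STE6 level.

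**Figure D3:**
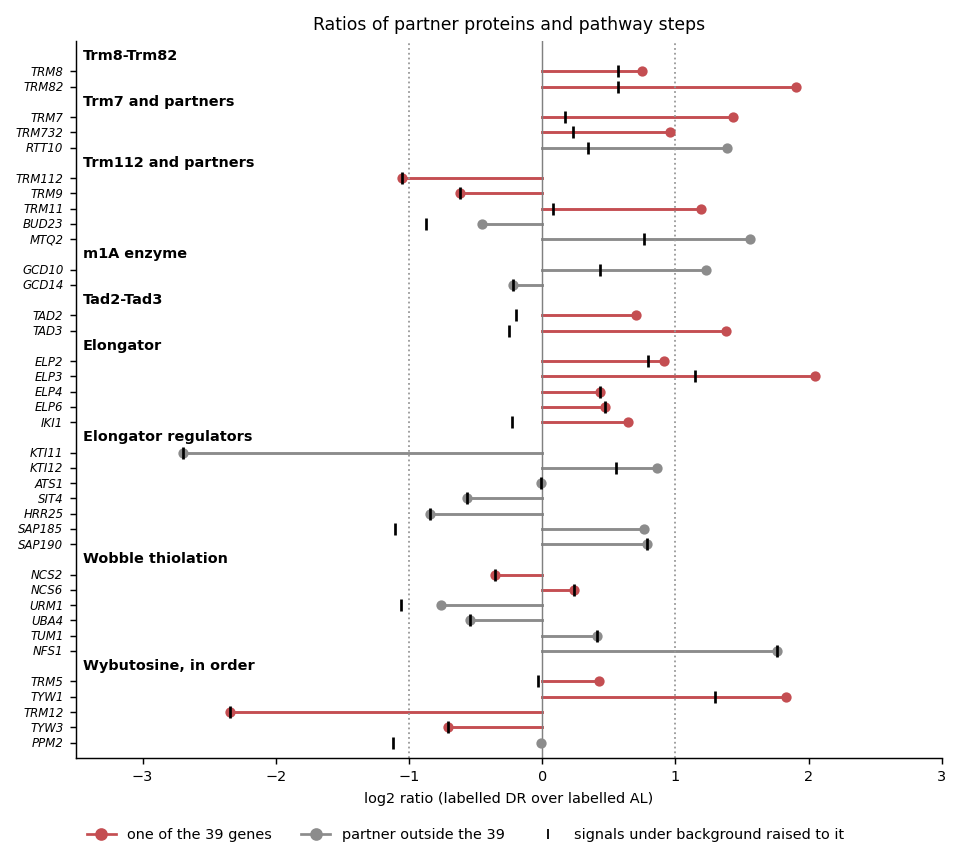
Log2 ratio (labelled DR over labelled AL) of genes whose products form a complex or follow each other in a pathway, for the 39 genes (red) and partners outside them (grey), from 1 array per condition. Black ticks give the ratio with signals under the STE6 level raised to it, and dotted lines mark 2-fold. TRM8 and TRM82 both take the STE6 level of the AL-labelled array there, so their shared 0.57 reflects the DR-labelled array alone. TYW1 and TRM12 stay on opposite sides of 0.

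Genes that the symbol rule leaves out, enzymes together with partners, regulators and carriers, had a median nearer to that of all genes. Of 34 further genes for tRNA modification, 5 (14.7%) were more than 2-fold higher on the DR-labelled array and 4 (11.8%) on the AL-labelled array, beside 20.5% and 24.3% of all genes. Both shares were under those of all genes, and the median log2 ratio was 0.09. ABP140 (TRM140), an actin-binding methyltransferase of cytidine, had a signal of 1887 on the DR-labelled array and 488.3 on the AL-labelled array. NCL1 (TRM4), which makes 5-methylcytidine, had 2269 on the DR-labelled array and 879.8 on the AL-labelled array. Both had higher signals on the DR-labelled array and lay above the STE6 level on both arrays. GCD10 (TRM6) and GCD14 (TRM61), subunits of the enzyme for 1-methyladenosine, had log2 ratios of 1.23 and −0.22, and GCD10 had 0.43 with its signal on the AL-labelled array raised to the STE6 level. DEG1 (PUS3), a synthase of the anticodon arm, had 202.2 on the DR-labelled array and 272.9 on the AL-labelled array. It lay within 2-fold, as did RIB2 (PUS8), with a log2 ratio of −0.28.

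The genes for threonylcarbamoyl-adenosine, another base beside the anticodon, included 2 of the 4 genes higher on the AL-labelled array. KAE1 had 819.4 on the DR-labelled array and 2007 on the AL-labelled array, and GON7, a subunit of the same complex, had 151.2 on the DR-labelled array and 413.3 on the AL-labelled array. The other subunits of the complex did not all stand that way. BUD32 had a log2 ratio of 0.64, CGI121 0.75 and PCC1 −0.73, though CGI121 had −0.43 with signals under the STE6 level raised to it and PCC1 was under that level on both arrays. Of the further genes for this base, QRI7, its mitochondrial enzyme, had 0.63, or −0.47 with signals raised, and TCD2 and TCD1, which act on the finished base, had 0.31 and −0.50. SUA5, which supplies the intermediate, had 0.21, or −0.34 with signals raised. Of the mitochondrial wobble enzymes, MSS1, a GTPase, had 245.2 on the DR-labelled array and 615 on the AL-labelled array, while its partner MTO1 and the thiolase gene SLM3 had log2 ratios of −0.02 and −0.05.

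Set beside neighbouring steps of RNA metabolism, the 39 genes had a median (0.54) above that of 23 genes for tRNA splicing and end processing (−0.03) and below those of 22 genes for the modification of ribosomal RNA (1.36) and of 20 cytosolic aminoacyl-tRNA synthetases (2.31). Of the synthetases, 18 (90%) were more than 2-fold higher on the DR-labelled array and 0 on the AL-labelled array. The shares of all genes were 20.5% and 24.3%. WRS1, the tryptophan enzyme, had 2377 on the DR-labelled array and 125.2 on the AL-labelled array, a ratio of 19.0, or 8.44 with the signal on the AL-labelled array raised to the STE6 level. DED81, the asparagine enzyme, had 5487 on the DR-labelled array and 494.8 on the AL-labelled array. The pair within 2-fold were MES1 for methionine and GLN4 for glutamine, with log2 ratios of 0.92 and 0.69. Of the ribosomal RNA list, 12 (54.5%) were higher on the DR-labelled array and 3 (13.6%) on the AL-labelled array. NOP58, a core protein of the methylation guide particles, had 4999 on the DR-labelled array and 171.1 on the AL-labelled array, a ratio of 29.2, or 17.8 with the signal on the AL-labelled array raised to the STE6 level. NOP56, its relative, had 3613 on the DR-labelled array and 538.1 on the AL-labelled array. NOP10, a protein of the pseudouridine guide particles, and TSR3, an enzyme of small-subunit RNA, stood the other way, with log2 ratios of −1.11 and −1.66. Of the splicing and end processing list, 5 (21.7%) were higher on the DR-labelled array and 7 (30.4%) on the AL-labelled array. Beside these shares stand 20.5% and 24.3% of all genes. RPP1, a protein of RNase P, had 227.2 on the DR-labelled array and 51.1 on the AL-labelled array, a log2 ratio of 2.15 that became −0.31 with the signal on the AL-labelled array raised to the STE6 level. RNH70, an exonuclease of tRNA ends, had 785 on the DR-labelled array and 208 on the AL-labelled array. The signal of RNH70 on the AL-labelled array was also under the STE6 level, and raised to it the ratio was 2.79. POP6 and RPR2, also proteins of RNase P, had log2 ratios of −3.13 and −2.07. These differences between lists had no test.

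**Figure D4:**
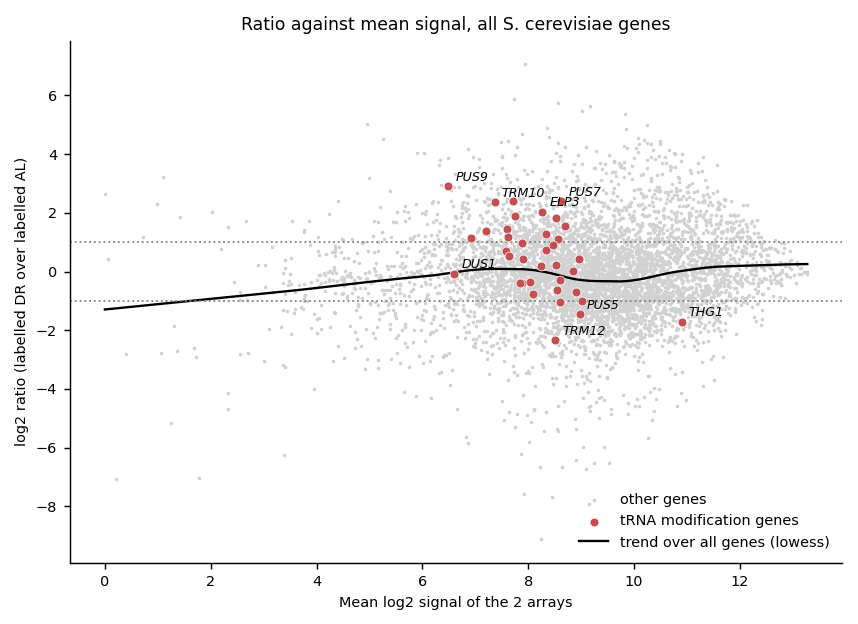
Log2 ratio (labelled DR over labelled AL) against the mean log2 signal of the 2 arrays for all 5449 genes (grey) and the 39 tRNA modification genes (red), with the trend over all genes (black line) and 2-fold marked by dotted lines. The 39 genes lie at a median mean log2 signal of 8.26, beside 9.16 for all genes, with PUS9 highest and TRM12 lowest in ratio.

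The mean log2 signal of the 39 genes had a median of 8.26, beside 9.16 for all genes. Among the 4214 genes within the range of mean signal that the 39 span, 20.5% were more than 2-fold higher on the DR-labelled array and 25.5% on the AL-labelled array, with a median log2 ratio of −0.15. That range takes in most of the 5449 genes, so these shares had little room to differ from those of all genes. It did not match the low signals of the 39 genes, as 1116 of the 4214 lay under the STE6 level on the AL-labelled array. On the AL-labelled array, 24 of the 39 genes lay under the STE6 level, beside 1536 of all 5449 genes. On the DR-labelled array 1 of the 39 did, beside 700 of all genes. The part of this unequal background in the ratios was not tested beyond raising the signals to it.

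**Figure D5:**
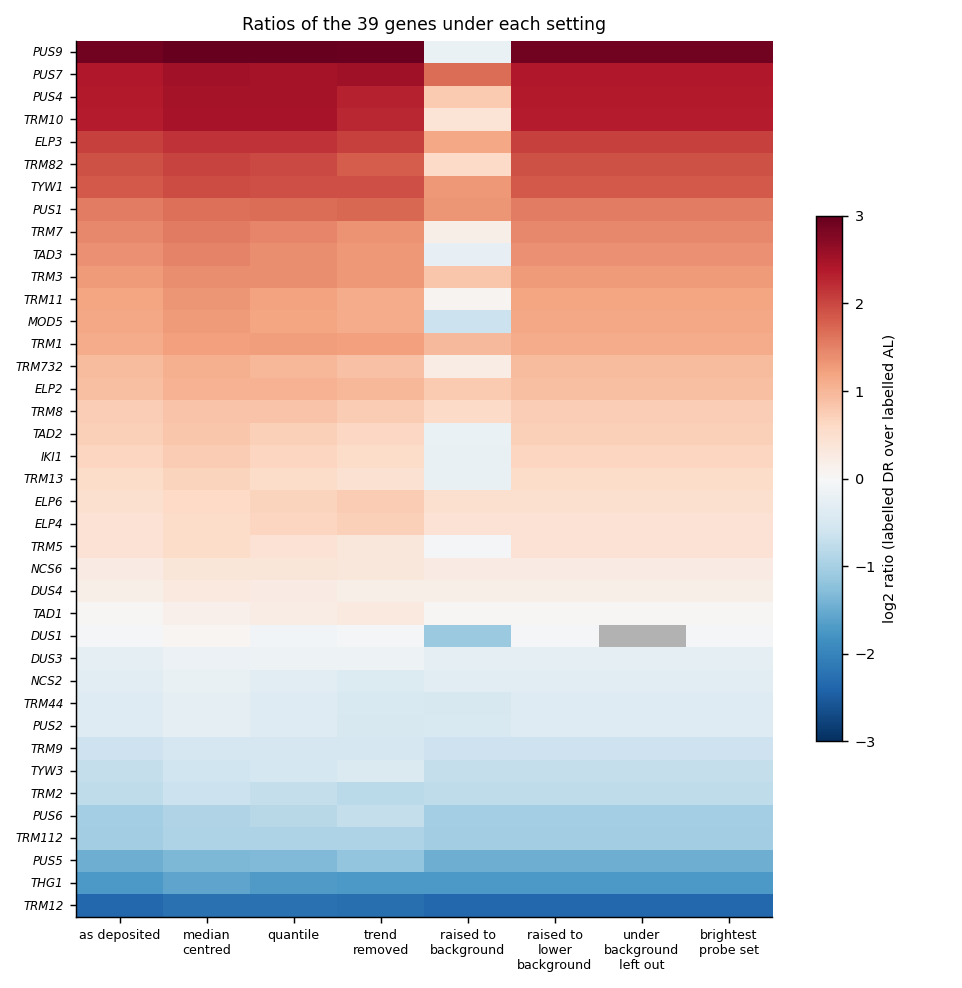
Log2 ratio (labelled DR over labelled AL) of the 39 genes, ordered by ratio, under the deposited scale and 7 other settings; red is higher on the DR-labelled array, blue is higher on the AL-labelled array, and grey marks DUS1, which is left out when genes under background on both arrays are dropped. Raising signals to the STE6 level is the setting that moves the ratios, with 4 genes left above 2-fold on the DR-labelled array.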

How the data were processed

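The table deposited by the authors holds 1 linear intensity for each probe set and array, normalized at a service laboratory with the Affymetrix statistical algorithms; the sources used here do not give their version or how the arrays were scaled to each other. Names came from GEO's annotation of the platform, some of it old: of 10928 probe sets, 7244 carried 1 gene symbol, 1 several and 3683 none, and 5498 matched an S. cerevisiae gene by its gene identifier in a RefSeq table (assembly R64), which also updated symbols. A gene's value is the mean of its probe sets' log2 intensities, and 1 value of 0 was set to 0.1, the smallest value above 0.

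Genes were counted past 2-fold. No test was run, since each condition had 1 array, whose number limits the precision. Every member is named, apart from an item of the rule that is not reported here. Of each comparison list, the 2 highest and 2 lowest ratios above the STE6 level on an array are named, with the partners of members. DEG1, SMM1, MTQ2 and the other genes of threonylcarbamoyl-adenosine were added after the values were seen. Members and lists were chosen with earlier results of these data known. Alternatives were median centring, quantile normalization, removal of a lowess trend (span 0.3), both background levels, leaving out dim genes, the brightest probe set, and thresholds of 1.5-fold and 3-fold. The calculations were checked on simulated data. A planned motif search was not run, since no promoter sequences were used here. Python 3.11.15 was run with matplotlib 3.10.9, statsmodels 0.14.6, pandas 2.3.3 and numpy 2.4.6.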

Additional observations from a re-analysis of the deposited data

How the results depend on the processing

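No paired analysis was possible because each condition had 1 array. All values are counts or medians of log2 ratios of the DR-labelled array over the AL-labelled array, and no error could be set beside them. Raising signals under the STE6 level to it changed most. The count of members higher on the DR-labelled array was then 4 in place of 14, and class medians were 0.13 for methyltransferases, −0.20 for pseudouridine synthases, a change of sign, and −0.20 for deaminases, beside −0.39 for all genes under the same setting. PUS9 had a log2 ratio of −0.20, TAD3 −0.25 and MOD5 −0.65, also with changed signs. TRM5, TRM13, TAD2 and IKI1, within 2-fold as deposited, turned negative too. These negative values come from the unequal levels, as the signals of these genes on the DR-labelled array were under 281.6. Besides PUS9, TAD3 and MOD5, 12 members moved by more than 1.5-fold. In the comparison lists the counts higher on the DR-labelled array were 3 for other tRNA modification genes and 1 for splicing and end processing. The counts higher on the AL-labelled array were 8 for other tRNA modification genes and 6 for ribosomal RNA modification, whose median was 0.25. The genes gained by these counts lay under the STE6 level on the AL-labelled array, and raising them to it made the calls. Of all genes, 14.1% were then higher on the DR-labelled array and 32.1% on the AL-labelled array. Median centring, quantile normalization and removal of the trend each left 3 members higher on the AL-labelled array, all of them among the 5 (PUS6 and TRM112 came within 2-fold), and 1 gene of the ribosomal RNA list. All 14 members higher on the DR-labelled array stayed past 2-fold under these 3 settings. For median centring this was fixed beforehand, as the median of all genes was negative and centring raised every log2 ratio. At 3-fold, 7 members were higher on the DR-labelled array and 2 on the AL-labelled array, and at 1.5-fold 8 were higher on the AL-labelled array. Of all genes, 29.3% were higher on the DR-labelled array and 35.7% on the AL-labelled array at 1.5-fold. At 3-fold the shares of all genes were 11.5% and 12.7%. For other tRNA modification genes the counts were 12 higher on the DR-labelled array and 7 on the AL-labelled array at 1.5-fold, and 2 and 1 at 3-fold. For splicing and end processing, 8 were higher on the DR-labelled array at 1.5-fold and 4 on the AL-labelled array at 3-fold, and for ribosomal RNA modification 1 was higher on the AL-labelled array at 3-fold. The lower background and the brightest probe set could not move any of the 39 ratios. No member lay under the lower level on either array, and each member had 1 probe set.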
